A study of Homo sapiens with 48 samples.

Results

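The joint state of androgen depletion and Mediator kinase inhibition was examined in Rv1-WT, the parental 22Rv1 prostate cancer line. It was defined by the sample titles as the 3 libraries of Rv1-WT grown in medium with charcoal-stripped serum (CSS) and treated with 500 nM SNX631, an inhibitor of CDK8 and CDK19, for 72 hours. They were compared with the 3 libraries of Rv1-WT kept in fetal bovine serum (FBS) medium and given the 0.1% DMSO vehicle for the same time. These 6 libraries are among the 48 of the series, which hold 16 groups of 3. The remaining Rv1-WT groups, SNX631 in FBS and vehicle in CSS, give the single effects, and the same comparison in Rv1-Luc, a luciferase-carrying subline of 22Rv1, shares no libraries with it. The rest of the series was the single treatments of Rv1-Luc and 8 groups of CDK8 and CDK19 double-knockout (dKO) derivatives. These libraries entered the filter on low counts, the scaling and the shared estimate of the spread, and none of the comparisons. Each condition was made in biological triplicate, from 1 cell line. Cells for CSS were first passaged once in CSS and were then seeded at 300000 cells per well, against 200000 per well in FBS, so that androgen removal, the added passage, the seeding density and the loss of other lipophilic serum components to charcoal cannot be told apart.

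22Rv1 is a castration-resistant prostate cancer line that grows with little androgen. CDK8 and its paralog CDK19 are the alternative kinases of the Mediator kinase module, which also contains cyclin C, MED12 and MED13 and which can both restrain and promote transcription by RNA polymerase II at inducible genes. Charcoal treatment of serum removes steroids, and androgen-induced genes are the usual readout of such medium. In bulk RNA, fewer cells that express a gene and less RNA per cell cannot be told apart.

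Rv1-WT library totals lay between 13.23 and 18.2 M counts. Replicates within the 4 Rv1-WT groups had a chi-square of 1.845 to 2.945 per degree of freedom, and none of the 12 libraries stood apart. Of the Rv1-Luc libraries, replicate 1 of FBS vehicle lay farther from replicates 2 and 3 (8.824 and 4.732) than these did from each other (3.042), and the main counts for Rv1-Luc are given with and without it. All 14 luminal prostate markers were expressed, with a summed level of 3710 to 3740 CPM (counts scaled to library size and by the trimmed mean of M values) in FBS vehicle and 4290 to 4340 in CSS with SNX631. Of the 8 basal markers 5 passed the filter on low counts, and the defining KRT5, KRT14 and TP63 did not. The leukocyte markers summed to 1.07 to 1.88 CPM and 1.04 to 1.68 CPM. Of the 9 fibroblast markers 5 were tested and 2 rose, beside 7.52% of all genes tested. The sum of the 5 was 15.7 to 16.7 CPM in FBS vehicle and 21.3 to 26.7 CPM in the joint state. The part of these markers in the results was not tested.

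The drug targets were considered first. CDK8 mRNA was at 26.6, 27.3 and 26.4 CPM in the FBS vehicle libraries and at 28, 26.7 and 25.7 CPM in the joint state. CDK19 was at 149, 148 and 150.0 CPM and 278, 261 and 281 CPM, a rise of 0.88 ± 0.043 on the log2 scale (SE; edgeR quasi-likelihood false discovery rate [FDR] 6.12e-25), with the libraries of the groups apart. Its level was 194 ± 6.58 CPM with SNX631 in FBS and 202 ± 2.73 CPM in CSS with vehicle (SD, n = 3), and neither single effect reached the 1.5-fold limit. The log2 FC of CCNC, which encodes cyclin C, was -0.28 ± 0.048, below that limit. CDK19 was the only one of the 7 kinase module genes that was called. Over all genes tested 7.52% rose and 4.26% fell.

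Across the transcriptome, 2357 of 20009 genes were differentially expressed in the joint state at an FDR under 0.01 and a fold change (FC) over 1.5, the limits used throughout. Of these, 1505 were higher (7.52% of the genes tested) and 852 lower (4.26%), so that 63.9% of the calls were increases. At an FDR under 0.05 with no fold limit the directions were even, since 4555 genes were higher and 4574 lower (49.9% higher). The change exceeded 4-fold in 191 of the genes that rose and in 32 of those that fell. All 3 joint libraries lay above or below all 3 FBS vehicle libraries for 10551 genes, 5348 above and 5203 below, which include 2338 of the calls. The median log2 FC over all genes tested was 0.015. For comparison, CSS with vehicle against the same FBS vehicle libraries called 1218 genes higher (6.09%) and 956 lower (4.78%), and SNX631 in FBS called 350 higher (1.75%) and 129 lower (0.645%). Within CSS, SNX631 called 595 genes higher (2.97%) and 251 lower (1.25%). These contrasts share libraries with the joint one, so their counts and values are set side by side and no overlap between them is read as a result.

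**Figure D1:**
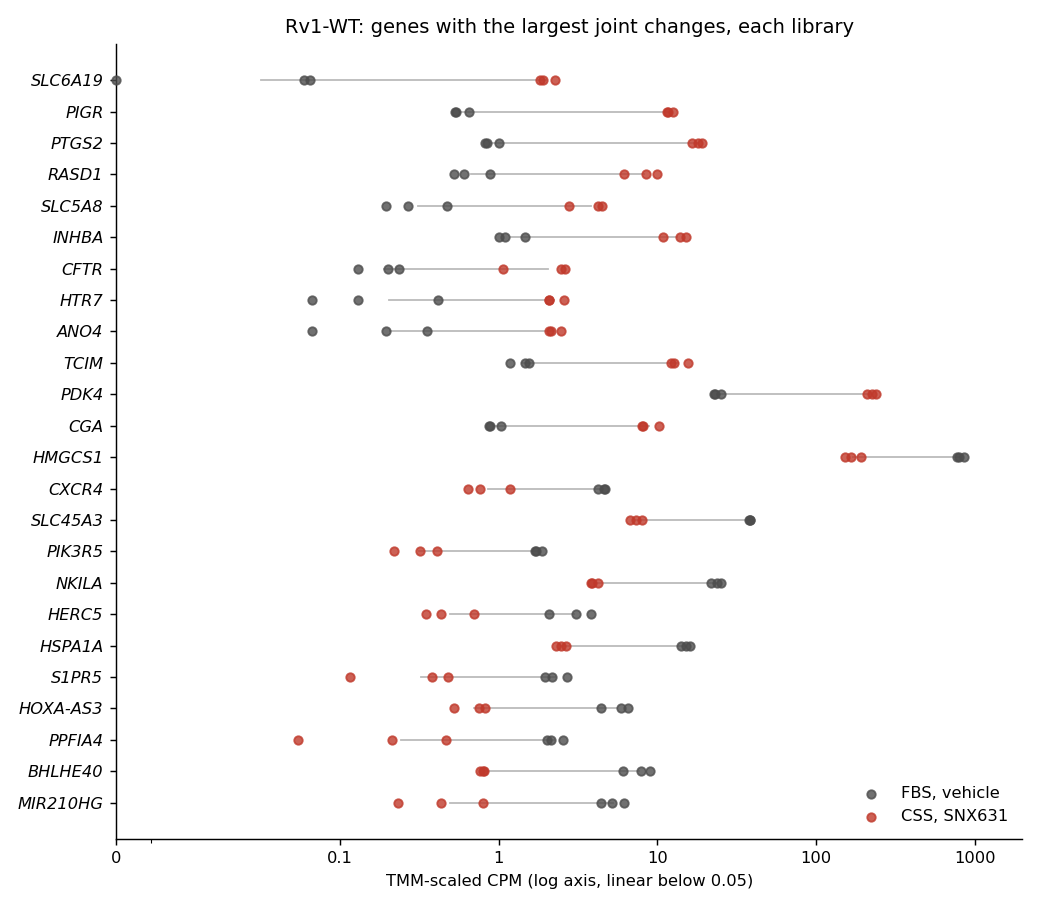
Levels of the 24 named genes with the largest joint changes in the 6 libraries, on a log axis of TMM-scaled CPM that is linear below 0.05; each point is a library and each grey line joins the group means. The 3 CSS SNX631 libraries lie above the FBS vehicle libraries for the upper 12 genes and below them for the lower 12, as the rule that chose these genes required.

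PIGR, the epithelial receptor that carries polymeric immunoglobulin across cells, was at 0.529, 0.536 and 0.649 CPM in FBS vehicle and 12.6, 11.5 and 11.6 CPM in the joint state, 20.7-fold higher (log2 FC 4.37 ± 0.26 SE, edgeR FDR 3.15e-21). PTGS2, which encodes the inducible cyclooxygenase, was at 0.823, 1 and 0.843 CPM and 18, 16.6 and 19.2 CPM (log2 FC 4.33 ± 0.24). The log2 FC of PIGR was 0.56 with depletion, which was not called, and 3.47 with SNX631 in FBS, and those of PTGS2 were 2.31 and 2.22, both called. PDK4, a kinase that shuts off pyruvate dehydrogenase, was the most abundant of the group, at 23.1, 22.8 and 25.1 CPM and 226, 209 and 237 CPM (log2 FC 3.24 ± 0.07, FDR 1.67e-42 by edgeR). INHBA, the activin subunit, went from 1.47, 1 and 1.1 CPM to 15.1, 10.9 and 13.9 CPM. CGA, the alpha subunit shared by glycoprotein hormones, went from 0.882, 0.87 and 1.04 CPM to 10.3, 8.16 and 7.99 CPM. These genes were chosen among those whose groups did not overlap, so in each the lowest joint library was above the highest vehicle library.

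The other genes of this group were low in FBS vehicle. RASD1, a small GTPase gene, was at 0.882, 0.603 and 0.519 CPM and 9.95, 6.13 and 8.42 CPM, and TCIM was at 1.18, 1.47 and 1.56 CPM and 12.8, 12.2 and 15.5 CPM, log2 FCs of 3.58 and 3.27. Among membrane transporters and channels, log2 FCs were 3.57 for the monocarboxylate transporter gene SLC5A8, 3.38 for the chloride channel gene CFTR and 3.36 for ANO4. CFTR was at 2.18 ± 0.423 CPM with SNX631 in FBS and 2.04 ± 0.845 CPM in the joint state (mean ± SD). It had at most 4 counts in any FBS vehicle library. HTR7, a serotonin receptor gene, changed by 3.38. Without FBS vehicle replicate 1, the highest of its group for both genes, the log2 FCs were 4.42 for HTR7 and 4.02 for ANO4. SLC6A19, a neutral amino acid transporter gene, was at or under 3 counts in each FBS vehicle library and at 2.26, 1.81 and 1.9 CPM in the joint state, at least 10.4-fold higher against the floor of 3 counts per library. It stood at 1.51, 0.959 and 1.13 CPM with SNX631 in FBS.

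MIR210HG, the host transcript of a hypoxia-induced microRNA, was at 5.17, 6.16 and 4.41 CPM in FBS vehicle and 0.231, 0.8 and 0.435 CPM in the joint state (log2 FC -3.39 ± 0.48). BHLHE40, a circadian and hypoxia-induced repressor, was at 8.94, 7.83 and 6.1 CPM and 0.81, 0.8 and 0.761 CPM (log2 FC -3.27 ± 0.39). PPFIA4 changed by -3.18, from 2.12, 2.01 and 2.53 CPM to 0.463, 0.213 and 0.0543 CPM, with a log2 FC of -3.99 without CSS SNX631 replicate 1 and of -2.71, no longer called, without replicate 3. These 3 genes were called with depletion alone (-2.63, -2.36 and -2.78) and not with SNX631 in FBS (-0.14, -0.41 and -0.17). HOXA-AS3, an antisense transcript of the HOXA cluster, fell with depletion (-0.96), with SNX631 in FBS (-3.25) and in the joint state (-2.99). The strand setting of the counting is not given, so its reads and those of the HOXA genes cannot be told apart.

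NKILA, a noncoding RNA that restrains NF-kappaB, was at 23.8, 25.1 and 21.9 CPM in FBS vehicle, 6.33, 7.97 and 8.09 CPM with SNX631 in FBS, 8.95, 8.49 and 8.08 CPM in CSS and 3.82, 3.89 and 4.24 CPM in the joint state (log2 FC -2.56 ± 0.11, edgeR FDR 1.05e-27). CXCR4, the chemokine receptor gene, was at 4.23, 4.62 and 4.67 CPM and 0.636, 1.17 and 0.761 CPM, and its level in CSS with vehicle, 0.834, 0.496 and 0.985 CPM, overlapped the joint state. The sphingosine phosphate receptor gene S1PR5 fell by 2.75 and PIK3R5, a regulatory subunit of phosphoinositide 3-kinase, by 2.47 on the log2 scale.

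Sterol synthesis genes were lower. Of 26 genes 21 fell (median log2 FC -0.98, against 0.015 over all genes). This joint count and those of the lists that follow stand beside the 7.52% of all genes tested that rose and the 4.26% that fell. Counts with depletion alone stand beside 6.09% that rose and 4.78% that fell. For SNX631 the shares that rose and fell were 1.75% and 0.645% in FBS, and 2.97% and 1.25% within CSS. HMGCS1, which makes the substrate of HMG-CoA reductase, was at 793, 853 and 776 CPM in FBS vehicle and 152, 193 and 166 CPM in the joint state, 4.74-fold lower (log2 FC -2.24 ± 0.14, edgeR FDR 4.79e-15). INSIG1, the sterol-sensing brake on SREBP processing, was at 550.0, 557 and 548 CPM and 145, 163 and 150.0 CPM. MSMO1, a demethylating enzyme of the pathway, was at 428, 466 and 456 CPM and 138, 163 and 147 CPM. In all 3 genes every joint library was below every vehicle library, as in 5203 of the 20009 genes tested. HMGCS1 was named in part for this. Depletion alone lowered 21 genes of the list (median -1.01) and SNX631 in FBS lowered 2 (median -0.35). HMGCS1 stood at 405, 455 and 428 CPM with SNX631 in FBS and 194 ± 8.49 CPM in CSS (mean ± SD), and the joint libraries overlapped those of CSS with vehicle (log2 FC of SNX631 within CSS -0.19 ± 0.14).

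The promoter of HMGCS1 is shown because NF-Y, which binds CCAAT boxes, acts with SREBP at sterol-regulated promoters. It is the stretch of 250 bases before the gene start in RefSeq (GRCh38.p14, chr5:43313413-43313662, minus strand), with matches to CCAAT on either strand in capitals.
HMGCS1: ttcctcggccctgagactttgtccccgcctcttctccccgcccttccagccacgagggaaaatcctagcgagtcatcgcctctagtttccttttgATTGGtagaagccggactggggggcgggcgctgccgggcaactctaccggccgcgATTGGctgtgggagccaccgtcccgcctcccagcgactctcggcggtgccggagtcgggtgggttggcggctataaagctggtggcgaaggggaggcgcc
Of the 21 sterol genes that fell, 14 had a promoter in the RefSeq table, and 13 of these held CCAAT on either strand in the window from 250 bases before to 50 after the start, against 35.7% of all 27305 promoters and 36.7% of the 12633 promoters of genes tested. The matches in HMGCS1 start 155 and 100 bases before the gene start. CCAAT was also found in 11 of 13 ATF4 targets that rose and 8 of 9 chaperones that fell, so it did not set the sterol genes apart. These matches describe the letters in the window and were not tested.

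Fatty acid synthesis followed with 5 of 13 tested genes lower (median -0.38). FASN, the fatty acid synthase gene, was at 1829, 1712 and 1583 CPM in FBS vehicle and 1096, 964 and 954 CPM in the joint state (log2 FC -0.77 ± 0.072). ACSS2, which makes acetyl-CoA from acetate, was at 121, 120.0 and 115 CPM, 37.4, 38.4 and 40.5 CPM in CSS with vehicle and 55.7, 66 and 55.8 CPM in the joint state, so the joint level lay between these. Within CSS, SNX631 raised it by 0.61 ± 0.13 on the log2 scale. ACLY and FADS2 changed by -0.67 and -0.81, FADS2 with fractional counts in 52.1% of libraries. Of the 8 sterol efflux genes, which respond to liver X receptors, 4 rose and 1 fell (median 0.44). The rises were 1.47 for ABCA1 and 0.93 for ABCG1, both cholesterol exporters, 0.68 for MYLIP, which degrades the LDL receptor, and 0.71 for SMPDL3A. The ABCA1 call was lost without FBS vehicle replicate 1 or 3 or CSS SNX631 replicate 1 (1.41, 1.32 and 1.37), and that of ABCG1 without FBS vehicle replicate 3 (0.72). SMPDL3A was called with SNX631 in FBS (0.79), while its log2 FC with depletion was -0.33. APOE, a lipoprotein gene named after its value was seen, fell (-0.59) and is not called when libraries are scaled by their size alone.

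Chaperones of the endoplasmic reticulum fell as well, 9 of 23 genes with a median of -0.50. HSPA5, which encodes the master chaperone BiP, was at 932, 940.0 and 894 CPM in FBS vehicle, 553, 541 and 523 CPM with SNX631 in FBS, 466, 406 and 416 CPM in CSS and 374, 357 and 363 CPM in the joint state. No joint library reached the lowest of the other 9, and the joint log2 FC was -1.34 ± 0.052 (edgeR FDR 9.15e-29). The disulfide isomerase gene PDIA4 changed by -1.33 ± 0.05, SDF2L1 by -1.28 ± 0.10 and the secreted factor MANF by -1.19 ± 0.066. Depletion alone lowered 11 members (median -0.56) and SNX631 in FBS 4 (median -0.19).

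The promoters of HSPA5, HSP90B1 and CALR are shown because they carry the endoplasmic reticulum stress element, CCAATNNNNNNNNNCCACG, through which the unfolded protein response acts on chaperone genes. Each is the 250 bases before the RefSeq gene start (GRCh38.p14), with matches to the element on either strand in capitals, for HSPA5 at chr9:125241344-125241593, minus strand, for HSP90B1 at chr12:103930160-103930409, plus strand, and for CALR at chr19:12938359-12938608, plus strand.
HSPA5: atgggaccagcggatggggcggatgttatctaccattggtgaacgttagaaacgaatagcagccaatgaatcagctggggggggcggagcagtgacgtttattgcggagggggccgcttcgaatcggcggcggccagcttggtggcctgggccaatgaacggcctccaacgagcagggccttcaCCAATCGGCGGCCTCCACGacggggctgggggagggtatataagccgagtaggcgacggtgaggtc
HSP90B1: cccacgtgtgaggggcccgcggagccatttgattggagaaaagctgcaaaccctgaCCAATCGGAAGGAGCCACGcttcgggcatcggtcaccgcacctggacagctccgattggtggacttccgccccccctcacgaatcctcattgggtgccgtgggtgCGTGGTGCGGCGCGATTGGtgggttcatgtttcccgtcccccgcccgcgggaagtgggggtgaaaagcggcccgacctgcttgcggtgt
CALR: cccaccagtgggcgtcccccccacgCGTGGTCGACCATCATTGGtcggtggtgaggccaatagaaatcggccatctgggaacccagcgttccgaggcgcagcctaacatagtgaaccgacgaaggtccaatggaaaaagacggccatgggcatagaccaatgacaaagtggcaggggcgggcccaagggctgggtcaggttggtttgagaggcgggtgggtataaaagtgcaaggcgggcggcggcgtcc
These were 3 of the 9 chaperone genes that fell, all of which had a promoter in the table. The element was found in 22 of all 27305 promoters (0.0806%) and in 15 of the 12633 promoters of genes tested (0.119%). It contains the CCAAT box, so the 2 motifs overlap. HSP90B1 and CALR counts were fractional in 50% of the libraries, which marks reads shared with other genes or positions, and their values are less certain.

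Cytosolic heat shock genes and tubulins were lower. Of 21 heat shock genes 10 fell (median -0.58), and the small heat shock gene CRYAB rose, from 0.294, 0.536 and 0.584 CPM to 1.33, 1.71 and 2.06 CPM. HSPA8, the constitutive cytosolic chaperone gene, was at 1658, 1744 and 1639 CPM in FBS vehicle, 682, 602 and 628 CPM in CSS and 447, 449 and 445 CPM in the joint state (log2 FC -1.91 ± 0.043, edgeR FDR 2.56e-41). The near-identical HSPA1A and HSPA1B changed by -2.60 ± 0.14 and -1.80 ± 0.054. Their counts were fractional in 83.3% and 81.2% of libraries, and those of HSPA8 in 62.5%, so the split between copies is uncertain. Of 12 tubulin genes 10 fell (median -0.89). TUBB, a major beta-tubulin gene, was at 1382, 1381 and 1336 CPM and 657, 708 and 667 CPM, and TUBB4B at 749, 742 and 747 CPM and 316, 320.0 and 302 CPM. TUBB3, TUBB4A and TUBB2A changed by -1.44, -1.30 and -1.07, with fractional counts in 64.6% of libraries for TUBB3 and 54.2% for TUBB2A. With depletion alone 9 heat shock genes and 11 tubulins fell. With SNX631 in FBS the medians were -0.0041 and -0.024.

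**Figure D2:**
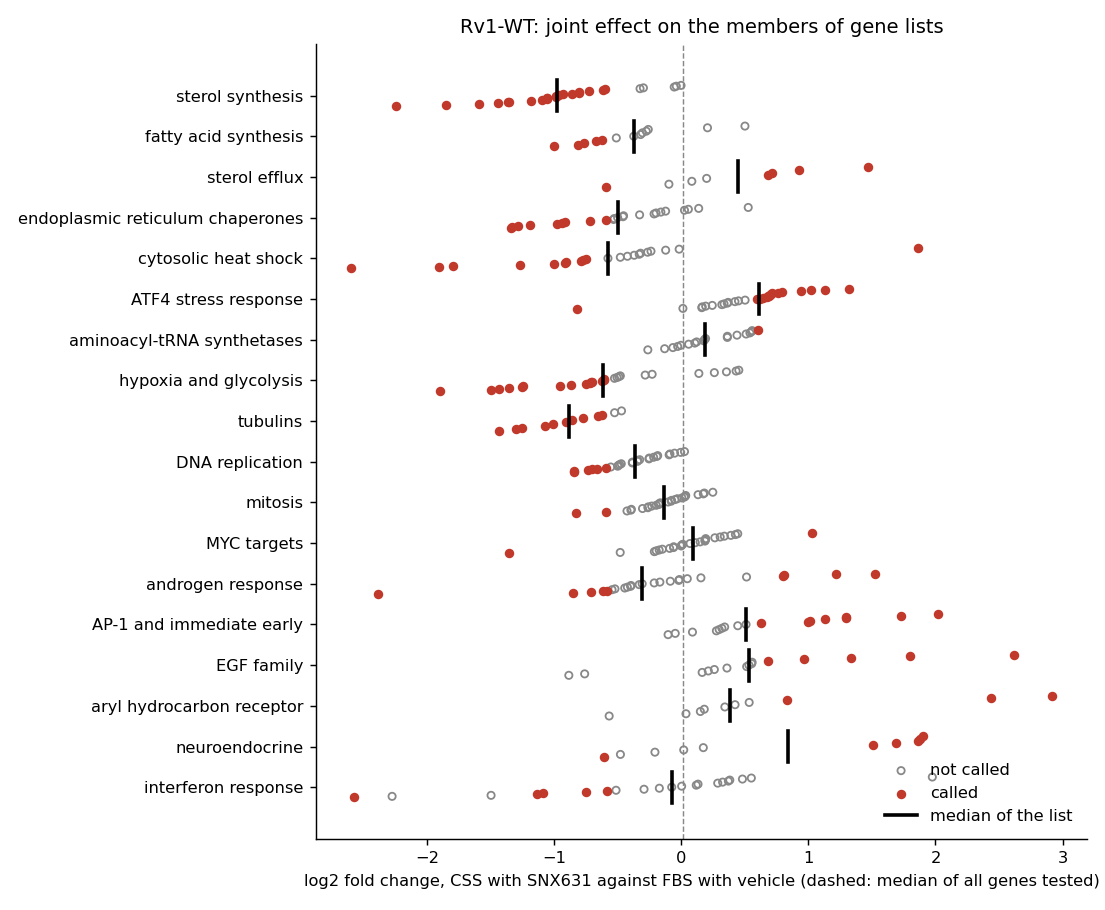
Joint log2 fold changes (x axis) of the tested members of 18 gene lists (rows) in Rv1-WT; filled points are genes called at FDR under 0.01 and FC over 1.5, open points are not called, and the bar marks the median of the list. The sterol synthesis and tubulin members lie at or below 0, and the ATF4 members lie above 0 except for 1 gene, ATF5.

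Targets of ATF4, the transcription factor of the integrated stress response, moved the other way. Of 28 genes 15 rose and 1 fell, with a median of 0.61. The one that fell was ATF5 (-0.82), a related factor named here after its value was seen. ATF4 itself was at 693, 669 and 704 CPM and 681, 699 and 703 CPM, groups that overlap. STC2, a secreted stress glycoprotein gene, was at 49.2, 39.6 and 44.6 CPM and 119, 108 and 107 CPM (log2 FC 1.32 ± 0.066). ATF3, a stress-induced transcription factor gene, was at 83, 79.6 and 84.9 CPM and 183, 175 and 184 CPM (log2 FC 1.13 ± 0.055). SESN2, which restrains mTORC1 when leucine is low, was at 73, 73.5 and 82.3 CPM, 222, 214 and 225 CPM in CSS with vehicle and 158, 154 and 152 CPM in the joint state. The single effects on DDIT3, the proapoptotic factor CHOP, were opposed, 1.63 ± 0.051 with depletion and -0.74 ± 0.057 with SNX631 in FBS, and its joint level, 129, 131 and 133 CPM, lay between CSS with vehicle (216, 204 and 213 CPM) and FBS with vehicle (68.4, 67.8 and 68.8 CPM). DDIT3 counts were fractional in 58.3% of libraries. Depletion alone raised 20 members (median 0.82), SNX631 lowered 2 in FBS (median -0.16), and within CSS it lowered 6 (median -0.26). Of 19 aminoacyl-tRNA synthetase genes AARS1, the alanyl enzyme, rose (0.60 ± 0.046, with fractional counts in 58.3% of libraries), and 3 rose with library size as the only scaling. GPT2, an alanine aminotransferase gene, rose by 0.73 ± 0.038.

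The promoter of ATF3 is shown for the core of the amino acid response element, TGATGNAA, to which ATF4 dimers bind. It is the 250 bases before the RefSeq gene start (GRCh38.p14, chr1:212565157-212565406, plus strand), with the match, on the strand shown, in capitals.
ATF3: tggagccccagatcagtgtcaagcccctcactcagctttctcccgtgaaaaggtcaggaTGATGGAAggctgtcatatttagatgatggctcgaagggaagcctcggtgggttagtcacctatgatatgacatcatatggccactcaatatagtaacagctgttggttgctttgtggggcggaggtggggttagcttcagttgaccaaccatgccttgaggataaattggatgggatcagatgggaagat
Among the 15 genes of the list that rose, 13 had a promoter in the table. Of these, 4 held the core in the window from 250 bases before to 50 after the start (ATF3, CHAC1, SLC7A1 and SLC3A2). The share was 3.67% of all promoters and 1.76% of those of genes tested. In SLC7A1 and SLC3A2 the match lies after the start, outside the kind of stretch shown.

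Hypoxia targets and glycolytic genes fell, 15 of 26 (median -0.62). PFKFB4, which tunes glycolytic flux, was at 25.5, 24 and 24.3 CPM in FBS vehicle and 6.13, 7.04 and 6.52 CPM in the joint state (log2 FC -1.90 ± 0.18). LDHA, lactate dehydrogenase A, was at 1128, 1159 and 1079 CPM and 433, 447 and 435 CPM (log2 FC -1.36 ± 0.069). ALDOC, an aldolase, and BNIP3, a mitophagy receptor, changed by -1.50 ± 0.13 and -1.44 ± 0.14. Depletion alone lowered 19 members (median -0.76). With SNX631 the median was -0.11 in FBS and 0.16 within CSS, so that the joint median was closer to 0 than that of depletion.

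Genes of DNA replication, mitosis and the MYC program were examined next. Of 26 DNA replication genes 6 fell (median -0.37), among them RRM2, a subunit of ribonucleotide reductase, from 357, 348 and 356 CPM to 185, 209 and 195 CPM. PCNA, the sliding clamp, was at 425, 429 and 438 CPM and 248, 274 and 272 CPM. GINS1 and FEN1 changed by -0.84 and -0.74, FEN1 with fractional counts in 52.1% of libraries. Depletion alone lowered 9 members (median -0.55). Of 26 mitotic genes 2 fell, namely CDC20, an activator of the anaphase-promoting complex (-0.83 ± 0.05), and the kinesin gene KIF20A (-0.60 ± 0.05), with a list median of -0.14. With library size as the only scaling KIF20A was under the 1.5-fold limit. Neither was called in either single effect, and the log2 FC of KIF20A was -0.035 with depletion and -0.31 with SNX631 in FBS. Of 26 MYC targets 1 rose, the ribosome assembly gene RRP12 (1.03 ± 0.051), and LDHA fell (median 0.089). Over all genes tested 7.52% rose and 4.26% fell, so the counts of the mitotic and MYC lists stand near these shares. MYC was at 273, 251 and 272 CPM in FBS vehicle, 201, 205 and 223 CPM in CSS and 370.0, 353 and 360.0 CPM in the joint state, a joint log2 FC of 0.44 ± 0.049 that was under the 1.5-fold limit.

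Androgen response genes went in both directions. Of 25 tested, 4 rose and 5 fell in the joint state (median -0.31; 3 fell with libraries scaled by size alone), whereas depletion alone lowered 7 (median -0.41) and SNX631 in FBS raised 4 and lowered 3 (median -0.0092). SLC45A3, encoding the prostate antigen prostein, was at 38.3, 38 and 38.6 CPM in FBS vehicle, 14.7, 15.6 and 15.4 CPM with SNX631 in FBS, 13.5, 14.4 and 14.7 CPM in CSS and 7.98, 7.3 and 6.68 CPM in the joint state (log2 FC -2.39 ± 0.097, edgeR FDR 7.25e-29). All 3 joint libraries were below the other 9. TMPRSS2, an androgen-induced serine protease gene, was at 17.8, 16.9 and 17.5 CPM, 42.2, 45.4 and 46.2 CPM with SNX631 in FBS, 9.23, 10.2 and 12.1 CPM in CSS and 41.1, 42 and 38.4 CPM in the joint state. It fell with depletion (-0.72 ± 0.086), rose with SNX631 in FBS (1.36 ± 0.072) and rose in the joint state (1.22 ± 0.072, edgeR FDR 1.52e-21).

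KLK3, which encodes prostate-specific antigen, was at 10.5, 11.6 and 9.93 CPM in FBS vehicle, 3.74, 5.16 and 4.48 CPM with SNX631 in FBS, 8.62, 8.3 and 8.6 CPM in CSS and 6.25, 5.22 and 6.25 CPM in the joint state, whose libraries lay between those of the single treatments. Its paralog KLK2 was at 18.2, 19 and 16.5 CPM and 12.1, 12.3 and 10.6 CPM. The joint log2 FCs were -0.85 ± 0.14 and -0.62 ± 0.17. MAF rose by 1.52 ± 0.49 from a level under 1 CPM (2.33 without FBS vehicle replicate 3). The calls of KLK2 and MAF were lost when any of several single libraries was left out. GATA2, a luminal transcription factor gene, rose by 0.76 ± 0.15. Of the 12 androgen-repressed and glucuronidation genes, UGT2B17 and UGT2B4 rose, by 1.91 ± 0.27 and 0.84 ± 0.16. UGT2B17, whose enzyme inactivates androgens, was at 1.29, 1.34 and 1.3 CPM and 4.16, 4.59 and 6.03 CPM.

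Several signalling lists had calls in 1 direction. Of 10 genes of the aryl hydrocarbon receptor pathway 3 rose. CYP1A1, its classic target, was at 2.06, 2.01 and 2.6 CPM in FBS vehicle, 20.5, 18.3 and 21 CPM in CSS with vehicle and 16.5, 16.2 and 17.8 CPM in the joint state (log2 FC 2.92 ± 0.29). The receptor gene AHR was at 22.9, 21.7 and 23.8 CPM and 44.4, 36.9 and 40.6 CPM, and CYP1A2 changed by 2.44 ± 0.61 from a level under 1 CPM (3.08 without FBS vehicle replicate 2). Of 15 EGF family and feedback genes 5 rose (median 0.53). AREG, encoding amphiregulin, was at 1.23, 1.07 and 0.519 CPM, 13, 10.5 and 10.7 CPM in CSS and 6.82, 5.44 and 5.33 CPM in the joint state, and SNX631 lowered it within CSS (-0.96 ± 0.18). DUSP6, an ERK phosphatase, was at 10, 10.8 and 9.54 CPM and 35.3, 34.1 and 36.1 CPM, and SPRY4 and HBEGF changed by 1.34 and 0.97. Of 17 AP-1 and immediate early genes 8 rose (median 0.51), among them IER3, from 2.41, 2.61 and 2.34 CPM to 12, 8.16 and 9.73 CPM. EGR2, EGR3 and FOS changed by 1.73, 1.30 and 1.29. The EGR2 call was lost without FBS vehicle replicate 1 or 3 or CSS SNX631 replicate 1 or 2 (log2 FC 1.46 to 1.74), with no filter on low counts and by DESeq2. Depletion alone raised 2, 7 and 9 genes of these lists, in that order.

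The promoter of CYP1A1 is shown for the core of the xenobiotic response element, GCGTG, recognised by the aryl hydrocarbon receptor. It is the 250 bases before the RefSeq gene start (GRCh38.p14, chr15:74725529-74725778, minus strand), with the match in capitals, 57 bases before the start.
CYP1A1: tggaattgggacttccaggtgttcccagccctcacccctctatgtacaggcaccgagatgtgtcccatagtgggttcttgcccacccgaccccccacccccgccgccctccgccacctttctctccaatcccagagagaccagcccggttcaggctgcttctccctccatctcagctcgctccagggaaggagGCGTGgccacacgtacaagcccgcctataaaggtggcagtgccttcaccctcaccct
In the window from 250 bases before to 50 after the start, 2 of the 3 genes of the list that rose held the core (CYP1A1 and AHR). The match in AHR lies after the start. It is a short motif that 36.3% of all promoters and 49.6% of those of genes tested hold.

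Neuroendocrine and secretory vesicle genes contained rises and a fall. Of 14 genes 10 were tested, 5 rose and 1 fell, and the remaining 4, among them INSM1, NCAM1 and SST, were too low to test. SYT4, a vesicle synaptotagmin gene, was at 119, 124 and 126 CPM in FBS vehicle and 372, 411 and 409 CPM in the joint state (log2 FC 1.69 ± 0.049, edgeR FDR 5.07e-36). CHGB, encoding secretogranin 1, was at 18.6, 17.7 and 20.8 CPM and 73.6, 67.7 and 71.6 CPM (log2 FC 1.90 ± 0.077). Both were called with SNX631 in FBS (1.21 and 1.10) and not with depletion (0.30 and 0.48). SCG2 changed by 1.86 and the prohormone convertase gene PCSK1 by 1.88, the latter below 1 CPM throughout. The PCSK1 call was lost without FBS vehicle replicate 2 or 3 or CSS SNX631 replicate 1 or 3 (log2 FC 1.49 to 1.83), and the log2 FC was 2.53 without FBS vehicle replicate 1. The member that fell was the glycolytic enzyme ENO2 (-0.61), which is also a hypoxia target and which is not called when libraries are scaled by size alone. Of 19 keratin genes 9 were tested and 4 rose. KRT7, a simple epithelial keratin, was at 56, 51.3 and 57 CPM and 136, 106 and 122 CPM. KRT80 changed by 2.84 (3.56 with libraries thinned to equal depth), while KRT15 and KRT81, at or under 3 counts in each FBS vehicle library, were at least 4.86-fold and 3.97-fold higher against that floor.

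Further rises lay at the lower end of the range. COL17A1, a hemidesmosomal collagen gene of the basal list, was listed at 0 in FBS vehicle and was at least 2.44-fold higher against the floor of 3 counts per library. COL3A1 and LUM, the fibroblast markers that rose, were at 0, 0.201 and 0.13 and 7.76, 7.7 and 10.3 CPM in FBS vehicle and 1.39, 1.49 and 1.41 and 15.7, 13.2 and 14.3 CPM in the joint state. COL3A1 was at least 7.51-fold higher against that floor.

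Among the remaining lists, 5 of 21 tested interferon response genes fell (median -0.076). OAS3, an antiviral RNA sensor gene, was at 33.2, 40.4 and 37.2 CPM and 16.6, 17.6 and 17.7 CPM. The ubiquitin ligase family genes HERC5 and HERC6 changed by -2.57 ± 0.31 and -1.14 ± 0.24, both called with SNX631 in FBS (-2.22 and -1.23), and IFITM3 by -0.75 ± 0.12. Of 19 NRF2 genes 2 rose and 3 fell. The hydroxysteroid dehydrogenases AKR1C1 and AKR1C2 rose, AKR1C2 from 6.76, 9.57 and 8.3 CPM to 37.1, 37.2 and 34.9 CPM (2.15 ± 0.13) and AKR1C1 by 2.25 ± 0.18. Heme oxygenase 1, HMOX1, and the ferritin light chain gene FTL fell by 1.73 and 0.73. Of 21 Wnt genes 3 rose and 3 fell. LGR5, a receptor for R-spondins, was at 10.5, 8.77 and 8.43 CPM in FBS vehicle, 27.2, 27.9 and 28.1 CPM with SNX631 in FBS, 4.22, 3.41 and 4.25 CPM in CSS and 19.6, 19.4 and 23.3 CPM in the joint state. RNF43 and the Wnt inhibitor gene DKK1 rose by 0.86 (fractional counts in 58.3% of libraries) and 1.12, and WNT5A changed by -0.92. Of 8 metallothioneins tested MT2A fell (-0.69 ± 0.097).

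**Figure D3:**
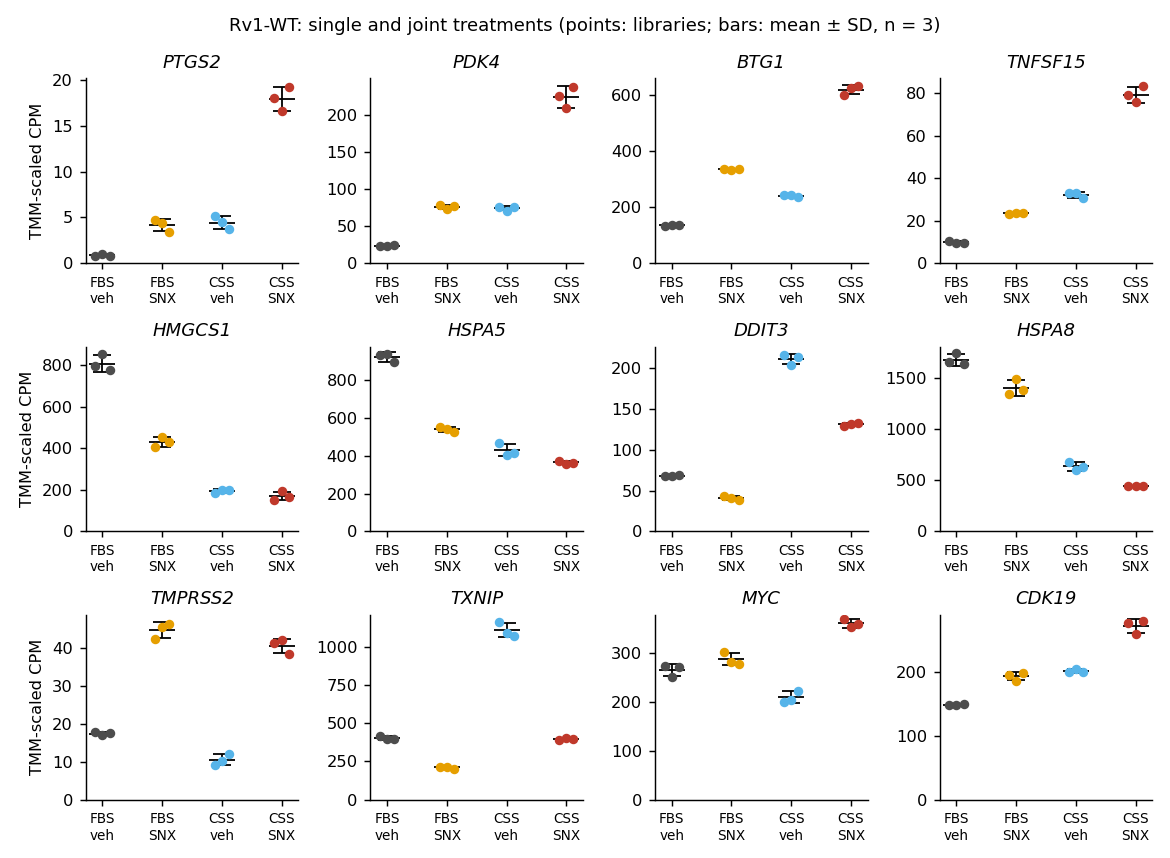
Levels of 12 genes in the 4 Rv1-WT groups (TMM-scaled CPM, axes from 0; points are libraries, bars the mean ± SD of 3). PTGS2, PDK4, BTG1 and TNFSF15 are highest in CSS with SNX631, while TXNIP is highest in CSS with vehicle and returns to the FBS vehicle level in the joint state.

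It was then asked which genes went beyond every other Rv1-WT group. A gene was counted where the joint group differed from FBS vehicle, SNX631 in FBS and CSS with vehicle in the same direction, with the highest of the 3 p-values adjusted over all genes and the smallest change over 1.5-fold. This held for 112 genes, 100 above every other group (0.500% of the genes tested) and 12 below (0.0600%). BTG1, an antiproliferative cofactor, was at 133, 138 and 137 CPM in FBS vehicle, 335, 333 and 338 CPM with SNX631 in FBS, 242, 242 and 235 CPM in CSS and 602, 624 and 633 CPM in the joint state. Its smallest difference from another group was 0.89 on the log2 scale (edgeR FDR 2.44e-27). The angiogenesis inhibitor THBS1 was at 17.2, 17.6 and 14.3, 36.3, 28.9 and 29.7, 50.1, 43.3 and 42.9 and 102, 85.8 and 90.1 CPM in the same order of groups. TNFSF15, a TNF family cytokine gene, was at 10.5, 9.71 and 9.73 CPM and 79, 75.7 and 83.2 CPM in FBS vehicle and the joint state, and TRIB1, a pseudokinase gene, at 45.9, 44.2 and 46.6 CPM and 169, 170.0 and 168 CPM. The smallest differences were 1.55 for PDK4, 1.30 for TNFSF15, 0.88 for TRIB1, 1.03 for THBS1 and 0.65 for TSC22D1. TSC22D1, a leucine zipper gene, was called in neither single effect (0.41 and 0.28) and changed by 1.06 ± 0.045 in the joint state.

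On the low side, SLC45A3 and NKILA had smallest differences of -0.96 and -0.90. The clock output gene DBP was at 27.9, 25 and 33.3 CPM, 20.1, 21.3 and 19.4 CPM, 19.9, 17.7 and 19.9 CPM and 11.2, 13 and 12.9 CPM in FBS vehicle, SNX631 in FBS, CSS and the joint state. PARP14, an ADP-ribosyltransferase gene, was at 40.7, 40.3 and 36.5 CPM and 20.1, 20.8 and 20.5 CPM, and its single effects, -0.24 and -0.22, were not called. TRIP10 and the protocadherin PCDHB8 changed by -0.86 and -1.15 in the joint state, and their log2 FCs with depletion, -0.0055 and -0.057, were not called. PCDHB8 belongs to a family of near-identical genes, and its counts were fractional in 75% of libraries.

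Whether SNX631 acted differently in CSS than in FBS was tested by the interaction of serum and drug. It called 59 genes, 49 with a more positive effect in CSS (0.245% of the genes tested) and 10 with a more negative effect (0.05%), and 2925 had an unadjusted p under 0.05. The endoplasmic reticulum genes PDIA4, HSP90B1 and CALR were among the 6 with the lowest p. HSP90B1 was at 2238, 2235 and 2168 CPM and 1384, 1441 and 1360 CPM in FBS without and with SNX631, and at 1009, 1058 and 1067 CPM and 1068, 1173 and 1134 CPM in CSS. The log2 FC with SNX631 was -0.67 ± 0.041 in FBS and 0.11 ± 0.041 in CSS (difference 0.77 ± 0.058, edgeR FDR 8.34e-15). For PDIA4 and CALR the differences were 0.83 ± 0.071 and 0.65 ± 0.062. APLN, which encodes the peptide apelin, and TFRC, the transferrin receptor gene, had differences of 0.75 ± 0.076 and 0.61 ± 0.062, and TFRC was at 302, 311 and 315 CPM in CSS and 426, 440.0 and 444 CPM in the joint state. MYC rose with SNX631 in CSS (0.78 ± 0.049) and had a log2 FC of 0.12 ± 0.049 in FBS (difference 0.67 ± 0.069, edgeR FDR 6.77e-10). LGR5 had a difference of 0.80 ± 0.17.

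Some genes were changed in opposite directions by depletion and by SNX631 in FBS. Of the genes with a mean of at least 10 CPM there were 26, of which 10 were higher and 2 lower in the joint state. Over all genes tested 7.52% were higher and 4.26% lower. These contrasts share the FBS vehicle libraries, so the counts are a description only. TXNIP, a thioredoxin-binding inhibitor of glucose uptake, was at 419, 396 and 399 CPM in FBS vehicle, 215, 214 and 204 CPM with SNX631 in FBS, 1160, 1091 and 1072 CPM in CSS and 390.0, 405 and 395 CPM in the joint state. The joint group overlapped FBS vehicle and the log2 difference was -0.03 ± 0.066. DMGDH, a mitochondrial choline catabolism gene, was at 8.23, 6.63 and 6.88 CPM and 7.92, 7.46 and 6.63 CPM, after single effects of 1.62 and -0.95. GCNT1, a mucin glycosyltransferase gene, and TENT5C, a poly(A) polymerase gene, had single effects of the opposite signs, -1.14 and 0.65 for GCNT1 and -1.15 and 0.66 for TENT5C, with joint log2 FCs of -0.0096 ± 0.10 and -0.023 ± 0.09. These 4 genes had the joint log2 FC closest to 0 and were chosen for it, so their values are a description.

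**Figure D4:**
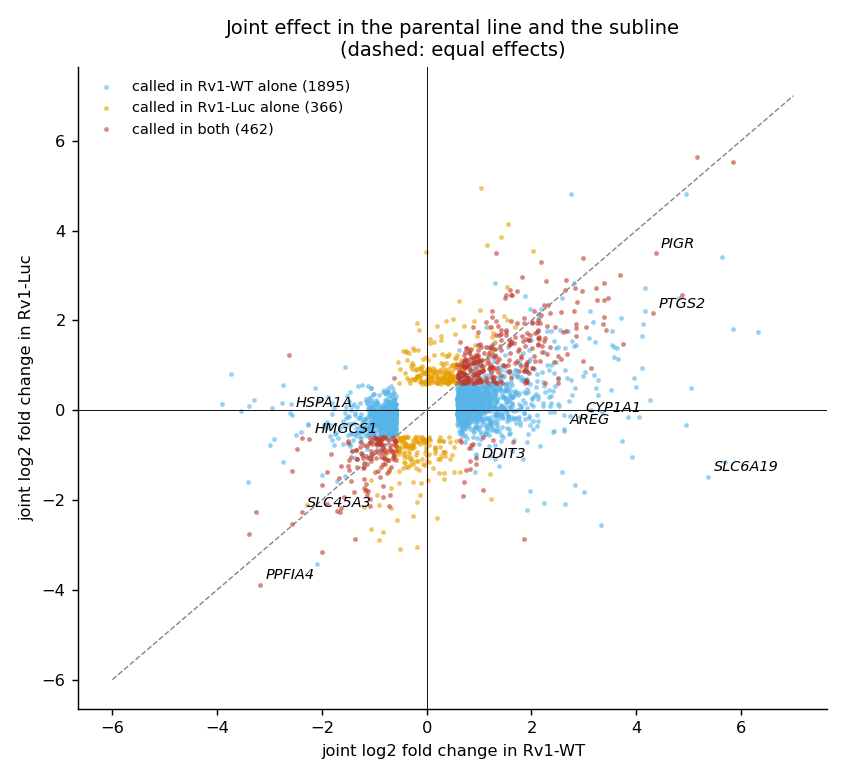
Joint log2 fold changes in Rv1-WT (x axis) and Rv1-Luc (y axis) of the 2723 genes called in either line; the dashed line marks equal effects, and changes of genes near 0 counts depend on the prior count. The 462 genes called in both lie mostly along the same direction, while sterol, heat shock and ATF4 genes such as HMGCS1, HSPA1A and DDIT3 lie away from the dashed line.

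The same comparison in Rv1-Luc called 828 genes, 517 higher (2.58%) and 311 lower (1.55%). Of these, 462 were also called in Rv1-WT, which is 19.6% of the Rv1-WT calls and 55.8% of the Rv1-Luc calls, and 443 of them changed in the same direction (305 higher and 138 lower). Without FBS vehicle replicate 1 of Rv1-Luc, 449 were called in both and 423 of them had the same direction. Across the 2723 genes called in either line the log2 FCs had a Pearson correlation of 0.543 and a slope of Rv1-Luc on Rv1-WT of 0.384. Without that replicate these were 0.537 and 0.403. Over all 20009 genes tested the correlation was 0.347 and the slope 0.251. Of the 2723 genes, 2357 were called in Rv1-WT and 828 in Rv1-Luc, so the choice of genes itself bears on the slope. Genes are not independent replicates, so no p-value is given. The difference of the joint effects was tested directly and called 583 genes whose effect was the more positive in Rv1-Luc (2.91%) and 758 whose effect was the more negative there (3.79%), 1384 in all without that replicate. At an FDR under 0.05 with no fold limit 3157 were more positive and 2591 more negative, the opposite balance. Of the 2357 genes called in Rv1-WT, 877 differed between the lines, and for 858 of these the difference was opposite in sign to the Rv1-WT effect. These genes were chosen by their Rv1-WT effect, which enters the difference with its sign turned. The balance therefore follows largely from the choice and is not a result.

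Joint changes that were called in both lines included that of PIGR, which in Rv1-Luc was near the floor of 3 counts in FBS vehicle (0.0405, 0.0419 and 0 CPM) and was at 0.392, 0.464 and 0.28 CPM in the joint state. PDK4 was at 18.9, 25.9 and 23.2 CPM and 128, 117 and 126 CPM, BTG1 changed by 2.11 and SLC45A3 by -2.28. CDK19 rose by 0.79 ± 0.043 and TMPRSS2 by 1.39 ± 0.085. In the hypoxia and glycolysis list 13 of 26 genes fell in Rv1-Luc (median -0.59), and in the endoplasmic reticulum list 6 of 23 (median -0.41), with HSPA5 at -1.09 ± 0.05. Without FBS vehicle replicate 1 these counts were 12 and 6.

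The lines differed in ATF4, sterol, heat shock and tubulin genes, and in other lists. The difference was called for 9 of 17 AP-1 and immediate early genes and 7 of 15 EGF family genes. It was also called for 5 of 12 androgen-repressed and glucuronidation genes, and all of these were more negative in Rv1-Luc. Without FBS vehicle replicate 1 of Rv1-Luc these counts were 9, 6 and 3. Over all genes tested the difference was more positive in 2.91% and more negative in 3.79%. In Rv1-Luc 6 of the 28 ATF4 targets fell (median -0.43; 12 without FBS vehicle replicate 1), and the difference between lines was called for 19 of them (21 without that replicate), each more negative in Rv1-Luc. DDIT3 was at 50.1, 60.8 and 60.6 CPM in FBS vehicle and 26.1, 24.1 and 24.6 CPM in the joint state of Rv1-Luc, a fall, against its rise in Rv1-WT (difference -2.14 ± 0.077, edgeR FDR 2.66e-30). For ATF3 and GPT2 the differences were -1.66 ± 0.081 and -1.06 ± 0.055. NBPF1, of a duplicated gene family, rose by 0.98 in Rv1-WT with fractional counts in 47.9% of libraries, and had a log2 FC of -0.41 in Rv1-Luc, which was not called.

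Of the 26 sterol genes 1 fell in Rv1-Luc (median -0.20; 3 without FBS vehicle replicate 1), and 17 differed between lines (12 without it). HMGCS1, whose promoter is printed with the sterol genes, was at 579, 1099 and 977 CPM and 640.0, 619 and 455 CPM in Rv1-Luc (difference 1.61 ± 0.19), where replicate 1 of FBS vehicle was the lowest of its group. Without it the difference was 1.38. Differences were called for 10 of 21 heat shock genes and 7 of 12 tubulins (10 and 8 without that replicate), all less negative or more positive in Rv1-Luc. HSPA8 was at 2402, 2291 and 2304 CPM and 1938, 1824 and 2045 CPM there, TUBB at 1565, 1491 and 1514 CPM and 1508, 1445 and 1512 CPM, and the log2 FCs of TUBB4B and HSPA1B there, -0.075 ± 0.046 and 0.16 ± 0.047, were not called. Those of CYP1A1 and AREG, which rose in Rv1-WT, were -0.15 ± 0.23 and -0.42 ± 0.45 in Rv1-Luc, neither called. The direction for CYP1A1 rests on FBS vehicle replicate 1 (13.9, 5.24 and 6.58 CPM in that group), since without it the log2 FC was 0.40, and the difference between lines was then -2.52, still called.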

How the data were processed

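RNA-seq libraries of total RNA were prepared with a directional kit. The submitters' processing notes name FastQC, cutadapt 2.8, STAR 2.7.2b, featureCounts, Subread 2.0.3 and the builds GRCh38.p13 and GRCm39, and the annotation release and the strand setting of the counting are not given in the sources used here. The authors deposited estimated counts per gene, of which 81.6% of the nonzero values were whole, and the rest mark reads divided between features. These were rounded to whole numbers.

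Of 61817 entries, 61815 carried a gene identifier and 20009 passed the filterByExpr filter of edgeR (minimum count 10, minimum total 15). Counts were scaled with TMM factors (trimmed mean of M values) and tested with edgeR 4.0.16 (limma 3.58.1, R 4.3.3) by the robust quasi-likelihood F test in a model of 16 group means over all 48 libraries, with 32 residual degrees of freedom and Benjamini-Hochberg adjustment over all genes. The biological coefficient of variation was 4.2%. Genes were called at FDR under 0.01 and FC over 1.5, the study's limits. Counts were simulated for 20009 genes from the fitted spread, with every group but the joint one at the FBS vehicle mean. The changed genes, as many raised as lowered, were drawn from those with a mean of at least 1 CPM there. The joint contrast called 48 of 50 genes raised 2-fold, 45 of 50 lowered 2-fold, and all 50 raised and all 50 lowered 4-fold. Of the 18429 unchanged genes tested it called 2. These figures do not cover changed genes under 1 CPM, or changes as many and as uneven as in the data. Floors of 3 counts cover counting error only. All library columns were matched to their samples by title.

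Genes were named by a rule: the 12 largest joint changes in each direction with a mean of at least 1 CPM and no overlap, the 6 lowest p-values in each direction beyond every other group, the 6 lowest in the interaction, the 4 lowest in each direction of the difference between lines, up to 4 called members of each list, 10 fixed genes, and the 4 opposed genes with the joint FC closest to 0 and a mean of at least 10 CPM. Members and lists were chosen with earlier results of these data known. Alternatives covered the scaling, filter, thresholds, depth, libraries in the fit, replicate block, left-out libraries and DESeq2 1.42.0. Promoters came from RefSeq (GRCh38.p14). Some items are not reported here.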

Additional observations from a re-analysis of the deposited data

Results flagged for a closer look

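Of 127 named genes, 59 had a joint effect that was not the same in both lines by the test of the difference itself (edgeR, the limits used above), 34 more negative and 25 more positive in Rv1-Luc. Over all 20009 genes tested the difference was called more positive in 2.91% and more negative in 3.79%. Many named genes were chosen by their Rv1-WT effect and some by the p-value of this difference. The count among them therefore follows in part from the choice. The differences of log2 FC, Rv1-Luc minus Rv1-WT, were -6.86 for SLC6A19, -3.08 for CYP1A1, -3.04 for AREG, -2.59 for TCIM, -2.41 for RASD1, -2.38 for EGR3, -2.17 for PTGS2 and -2.14 for DDIT3. The value of SLC6A19 depends on the prior count, since its Rv1-WT vehicle libraries are at the floor. Without FBS vehicle replicate 1 of Rv1-Luc, the library that stood apart, the differences of SLC6A19 and HBEGF were -2.70 and -0.79 and were not called. More moderate negative differences were -1.89 for THBS1, -1.89 for TNFSF15, -1.78 for STC2, -1.74 for IER3, -1.68 for UGT2B4, -1.66 for ATF3, -1.54 for KRT7, -1.49 for SESN2, -1.47 for SCG2, -1.43 for DKK1, -1.39 for NBPF1, -1.27 for SYT4, -1.23 for TRIB1 and -1.21 for FOS. The smaller ones were -1.14 for DMGDH, -1.12 for TSC22D1, -1.06 for GPT2, -0.94 for CHGB, -0.92 for HBEGF, -0.91 for RRP12, -0.84 for AHR, -0.82 for AARS1, -0.79 for PDK4, -0.73 for SPRY4, -0.62 for TXNIP and -0.60 for DUSP6. Positive differences were 0.63 for MT2A, 0.63 for TENT5C, 0.69 for TFRC, 0.69 for KLK3, 0.71 for PCNA, 0.77 for SDF2L1, 0.85 for GCNT1, 0.88 for GINS1, 0.88 for TRIP10, 0.98 for TUBB, 0.99 for ACSS2, 1.08 for OAS3, 1.13 for TUBB3, 1.18 for TUBB4B, 1.22 for HMOX1 and 1.26 for INSIG1. The largest were 1.35 for MSMO1, 1.60 for PIK3R5, 1.61 for HMGCS1, 1.64 for HSPA8, 1.75 for CXCR4, 1.96 for HSPA1B, 2.21 for HOXA-AS3, 2.54 for HSPA1A and 2.91 for S1PR5.

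The effect of SNX631 differed between CSS and FBS in 7 named genes by the interaction term, each more positive in CSS. The differences on the log2 scale were 0.61 for TFRC, 0.65 for CALR, 0.67 for MYC and 0.75 for APLN. They were 0.77 for HSP90B1, 0.80 for LGR5 and 0.83 for PDIA4. All of these genes but LGR5 met the naming rule of the lowest interaction p-values, so the count follows largely from the choice. Over all 20009 genes tested the interaction was called more positive in CSS in 0.245% and more negative in 0.05%. The shared direction is therefore also the more common one among all calls, and it is not a separate result. Groups of 3 libraries were not examined for single outlying values.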

How the results depend on the processing

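The count of joint calls in Rv1-WT was within 1.5 times its value of 2357 under other scalings, filters, depth and tools, and with 1 library left out it ranged from 2152 to 2304. Leaving out 1 library gave 92 to 113 genes beyond every other group, 40 to 68 in the interaction, 759 to 805 for Rv1-Luc and 1197 to 1384 for the difference between lines. The counts depended on the threshold. At an FDR under 0.05 with no fold limit they were 9129 for the joint effect, 721 beyond every other group, 627 in the interaction, 4887 for Rv1-Luc and 5748 for the difference between lines. Tested against a 1.5-fold change they were 770, 14, 1, 270 and 214. The replicate numbers did not pair the samples (correlations of same-numbered deviations from -0.0254 to 0.0257), and with the replicate block the joint count was 2312, with 109, 69, 833 and 1334 for the others.

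Of 2041 values of the 129 genes named by the rule, of which 127 are reported, under alternatives, 1957 kept their direction and side of the limits, 63 fell short of them, 2 passed them and 19 changed sign. Every change of sign was in a gene that was not called: 0.031 for GCNT1, 0.018 for TENT5C and 0.011 for TXNIP when library size alone was used, -0.00036 for ATF4, -0.011 for CDK8 and -0.00096 for DMGDH with no filter on low counts, 0.012 for GCNT1 at a mean of at least 1 CPM. With 1 library left out the log2 FC ran from -0.0101 to 0.0267 for ATF4, from -0.0318 to 0.0308 for CDK8, from -0.049 to 0.118 for DMGDH, from -0.083 to 0.0762 for GCNT1, from -0.0904 to 0.0435 for TENT5C. Calls were lost without FBS vehicle replicate 1 for ABCA1, EGR2, KLK2, MAF, without FBS vehicle replicate 2 for KIF20A, KLK2, MAF, PCSK1, WNT5A, without FBS vehicle replicate 3 for AARS1, ABCA1, ABCG1, EGR2, PCSK1, without CSS SNX631 replicate 1 for ABCA1, EGR2, KIF20A, MAF, PCSK1, without CSS SNX631 replicate 2 for EGR2, WNT5A, without CSS SNX631 replicate 3 for KIF20A, KLK2, MAF, PCSK1, PPFIA4, WNT5A. KLK2 and KIF20A missed the limits when library size alone was used. Tested against a 1.5-fold change, 28 of the 129 genes fell short. These were AARS1, ABCA1, ABCG1, ACLY, CYP1A2, EGR2, EGR3, FASN, FTL, GATA2, HBEGF, HERC6, IFITM3 and KIF20A. The others were KLK2, KLK3, KRT7, LUM, MAF, MT2A, MYLIP, PCNA, PCSK1, PPFIA4, SMPDL3A, TRIP10, UGT2B4 and WNT5A. The causes were not tested. Depth limits the genes below 1 CPM, and 270 of the joint calls had a mean under it.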
